A study of Mus musculus with 8 samples.

Results

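Glycolysis splits glucose into pyruvate in the cytosol, and pyruvate is then either reduced to lactate and exported or taken into mitochondria and oxidised. The hypoxia-inducible factors are transcription factors whose alpha subunits, Hif1a and Epas1 (also called HIF-2 alpha), are hydroxylated by the Egln prolyl hydroxylases when oxygen is present and then marked for destruction by Vhl; many glycolysis genes are their textbook targets. Activated T cells are known to raise glycolysis, and regulatory T cells to rely on it less than effector T cells. The list examined here held 38 genes of glycolysis, pyruvate use and the hypoxia response. Probe sets were chosen by the symbol in the platform annotation, 1 per gene, as the one with the highest mean log2 intensity over all 8 arrays. That rule found 36 of the 38, among 18194 genes with a named probe set in all: 35 were tested, Gapdh was named singly only on array control probe sets and is described without a test, and Gpi1 and Eno1 were not analysed here. No member had a mean level under the middle of all probe sets.

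The samples were mouse CD4+ T cells from animals whose Foxp3 gene, which encodes the defining transcription factor of regulatory T cells, carried an EGFP reporter on either the wild-type allele (here WT) or a mutant allele that the labels call delta. Cells were sorted by fluorescence; the study's design text gives hemizygous males as the source of the EGFP+ cells. Each RNA was measured on 1 Affymetrix oligonucleotide array: WT EGFP+ (n = 3), delta EGFP+ (n = 3), WT EGFP- (n = 1) and delta EGFP- (n = 1). Both alleles carry EGFP, so no group is free of the reporter. The sources used here do not give age, strain background or pooling of animals, nor whether replicates came from separate animals. The p-values then reflect only the scatter of these samples, possibly a technical one, and precision is limited by how few arrays there are.

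Median intensity per array lay between 53.28 and 54.73. The Foxp3 probe set stood at 4.75, 4.87 and 4.64 (log2 intensity) in the arrays labelled WT EGFP+, at 11.10, 11.51 and 11.21 in those labelled delta EGFP+, at 4.52 in WT EGFP- and at 6.14 in delta EGFP-. The low reading in the arrays labelled WT EGFP+ goes against their label, and the sources used here do not say where the probe set lies on the altered alleles. Of the 10 regulatory T cell markers measured, the other 9 were all called higher in WT EGFP+ than in WT EGFP-, among them Il2ra (by 4.56) and Ikzf2 (by 4.18). Between the EGFP+ groups 1 of the 10 was called higher in delta EGFP+, Foxp3 itself, and 5 were called lower (Gpr83 by -1.93, Itgae by -1.73, Nrp1 by -1.39, Capg by -0.80 and Il2ra by -0.75). Every direction between alleles below rests on the labels. WT EGFP+ replicate 2 correlated at 0.98 and 0.981 with the other arrays of its group and at 0.981 with the WT EGFP- array. The other arrays of its group correlated at 0.9918 with each other and at 0.9777 and 0.9761 with the WT EGFP- array. The mean of 21 cell handling stress genes was 10.75, 9.80 and 10.81 in the WT EGFP+ arrays and 9.98, 9.91 and 8.94 in the delta EGFP+ arrays. T cell markers were high in every array (Cd3e between 12.04 and 12.81, Cd4 between 11.07 and 11.42), and 2 of the 6 measured were called lower in delta EGFP+, Cd5 by -0.46 and Cd28 by -0.66. Of the measured markers of B, myeloid, NK, erythroid and stromal cells 1 was called between the EGFP+ groups, Pecam1, which was lower in delta EGFP+. The summed intensity was 404.0 to 542.2 for B cell markers, 766.4 to 1839.5 for myeloid, 72.5 to 77.5 for NK, 404.1 to 433.9 for erythroid and platelet and 1140.0 to 1295.1 for endothelial and stromal markers in WT EGFP+. In delta EGFP+ these sums were 371.1 to 462.2, 795.4 to 1290.7, 77.5 to 85.6, 381.7 to 473.8 and 790.8 to 871.7. Pecam1 was the brightest endothelial and stromal marker in every array, so it weighed most in that sum. It read 9.86, 9.54 and 9.52 in WT EGFP+ and 8.56, 8.31 and 8.83 in delta EGFP+ (log2 intensity). The other markers of that list are given with Epas1 below. Cd8a, a marker of another T cell subset, was uneven (6.36, 5.22 and 6.29 in WT EGFP+, 8.50, 8.84 and 5.95 in delta EGFP+). Cd8b1, the other marker of that subset, was not (6.86, 6.66 and 7.13 against 6.82, 7.41 and 6.56, difference 0.05). In a bulk sample, fewer cells of a type and less RNA per cell cannot be told apart.

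Promoter sequence is shown first for 6 members on which the results turn, because the hypoxia-inducible factors are known to bind the core ACGTG or GCGTG. Windows are the 250 bases before the RefSeq transcription start (GRCm38.p6), written 5′ to 3′ on the strand of the gene, and capitals mark each match to ACGTG or GCGTG on either strand (read on the other strand as CACGT and CACGC). The palindrome CACGTG, also an E-box, counts once on each strand. The windows are chr6:124814159-124814408 for Tpi1 and chr6:82774455-82774704 for Hk2 (both minus strand), chrX:106186850-106187099 for Pgk1 and chr7:46845554-46845803 for the first Ldha start (both plus strand), chr12:54203875-54204124 for Egln3 (minus strand) and chr10:59323046-59323295 for P4ha1 (plus strand). The first 5 genes were higher in delta EGFP+ than in WT EGFP+, and P4ha1 was lower.
Tpi1: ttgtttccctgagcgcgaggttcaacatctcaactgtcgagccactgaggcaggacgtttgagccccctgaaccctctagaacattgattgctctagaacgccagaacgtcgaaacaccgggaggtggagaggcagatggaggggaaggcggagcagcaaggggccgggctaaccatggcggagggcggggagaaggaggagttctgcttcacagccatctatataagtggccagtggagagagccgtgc
Hk2: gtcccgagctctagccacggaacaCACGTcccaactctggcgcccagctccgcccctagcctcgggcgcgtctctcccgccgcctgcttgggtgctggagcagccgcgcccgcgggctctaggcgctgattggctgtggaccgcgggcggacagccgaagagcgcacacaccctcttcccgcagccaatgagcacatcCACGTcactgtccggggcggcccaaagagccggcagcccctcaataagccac
Pgk1: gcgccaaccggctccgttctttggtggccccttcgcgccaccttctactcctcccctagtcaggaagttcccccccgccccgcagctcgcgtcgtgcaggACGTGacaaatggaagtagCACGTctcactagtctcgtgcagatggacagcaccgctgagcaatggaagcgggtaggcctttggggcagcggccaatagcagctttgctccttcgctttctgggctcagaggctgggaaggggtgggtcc
Ldha: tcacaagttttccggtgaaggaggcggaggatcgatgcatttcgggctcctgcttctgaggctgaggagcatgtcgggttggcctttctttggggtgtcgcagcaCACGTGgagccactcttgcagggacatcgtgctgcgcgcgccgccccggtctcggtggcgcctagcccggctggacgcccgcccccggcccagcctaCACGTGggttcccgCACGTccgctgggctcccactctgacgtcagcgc
Egln3: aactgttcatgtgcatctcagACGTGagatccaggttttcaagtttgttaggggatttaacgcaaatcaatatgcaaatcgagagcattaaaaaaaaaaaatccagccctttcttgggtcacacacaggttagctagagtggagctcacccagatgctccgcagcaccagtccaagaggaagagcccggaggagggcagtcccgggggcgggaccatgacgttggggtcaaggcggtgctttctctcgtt
P4ha1: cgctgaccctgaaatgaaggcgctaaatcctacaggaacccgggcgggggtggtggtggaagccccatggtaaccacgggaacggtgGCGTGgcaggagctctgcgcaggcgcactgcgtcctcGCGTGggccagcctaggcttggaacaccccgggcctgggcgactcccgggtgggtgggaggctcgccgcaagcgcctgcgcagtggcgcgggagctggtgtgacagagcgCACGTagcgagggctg

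The Ldha window held 5 matches, 4 of them from a pair of CACGTG palindromes, that of P4ha1 3, those of Hk2 and Pgk1 2 each, and that of Egln3 1. No match was found in the Tpi1 window, although Tpi1 had the second largest rise of all members. Of the 33 tested members with a promoter in the RefSeq table, 29 held a match in at least 1 window, against 41.5% of all 27025 genes. By call between the EGFP+ groups, 12 of 13 higher members, 3 of 3 lower members and 14 of 17 members not called had one. Over single windows, 37 of 48 member windows had a match, against 38.6% of all 32851 promoter windows. Member windows were also richer in G and C (median 61% against 52.4%). Among windows of at least 60% G and C, 63.8% of all and 24 of 26 of the members' held a match. A match is a run of letters and not a measured binding site. The list holds hypoxia response genes and textbook targets of these factors by choice. Its excess of matches over all genes is therefore no result of these arrays.

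The first comparison asks how these genes differ with the mutant allele in cells sorted as EGFP+. Most steps from hexokinase to lactate export were higher in the arrays labelled delta EGFP+, while a glucose carrier, an enolase isozyme, a pyruvate dehydrogenase kinase and a collagen hydroxylase subunit were lower. Of the 35 tested members 14 rose and 4 fell (limma adjusted p under 0.05), and 17 did not pass. Among all 18193 genes tested, 10.4% were called higher and 6.02% lower. In a fit to probe sets with a mean above the median only, 1952 of 10992 genes were called higher and 1177 lower. The members gave 14 and 4 there too. The members' median difference was 0.33 on the log2 scale, against 0.02 over all genes. All 18 called members had EGFP+ arrays that did not overlap between alleles. In all, 17 members lay wholly higher and 8 wholly lower, where 20.2% and 14.0% of all genes did. The plot of differences by role shows the members group by group.

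**Figure D1:**
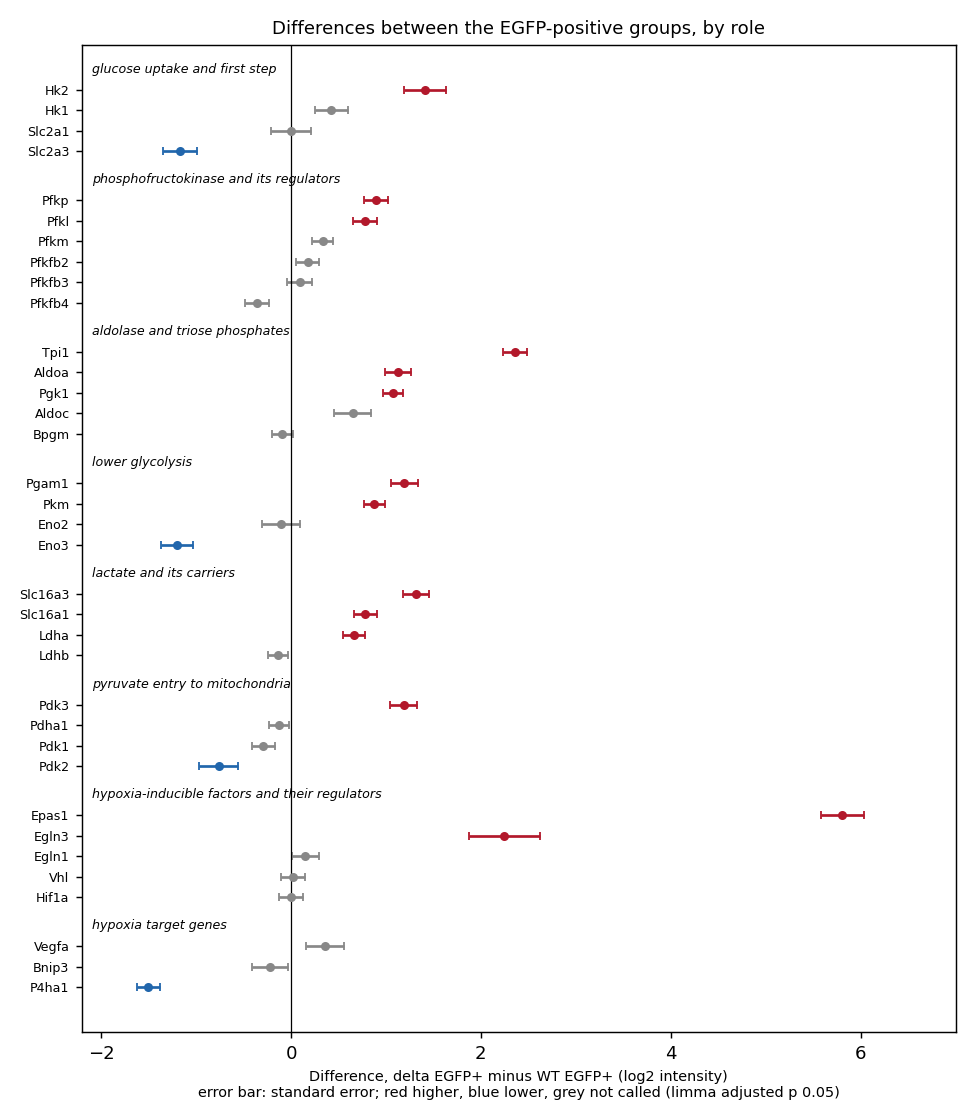
Difference between the arrays labelled delta EGFP+ and WT EGFP+ (x axis, log2 intensity) for the 35 tested members (y axis), grouped by role; points are differences of means over 3 arrays each, bars standard errors from limma, red called higher, blue called lower, grey not called. Epas1 stands at 5.81, Tpi1 at 2.36 and Egln3 at 2.25, and P4ha1 is lowest at -1.50.

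At glucose entry, the carriers and the hexokinases did not move together. Slc2a3, which encodes the glucose carrier GLUT3, stood at 11.23, 11.55 and 11.26 in WT EGFP+ and at 10.08, 10.55 and 9.91 in delta EGFP+ (log2 intensity). The groups did not overlap, and Slc2a3 was 2.25-fold lower in delta EGFP+ (difference -1.17, SE 0.18, adjusted p = 0.0057). Its other 3 probe sets differed by -1.14, -1.12 and -1.28. Slc2a1, the carrier GLUT1, stood at 10.03 ± 0.36 and 10.03 ± 0.25 (SD, n = 3 each), with a difference of 0.00 (SE 0.21) and no settled direction. Hk2, the inducible hexokinase that traps glucose as glucose 6-phosphate, read 6.92, 6.12 and 6.91 in WT EGFP+ and 8.16, 7.86 and 8.16 in delta EGFP+. It was 2.66-fold higher (difference 1.41, SE 0.22, adjusted p = 0.0063), and WT EGFP+ replicate 2 was the lowest of the EGFP+ arrays. For the constitutive hexokinase Hk1 the difference was 0.42 (SE 0.17, adjusted p = 0.17).

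Phosphofructokinase commits glucose to glycolysis and has 3 isozyme genes. Pfkp, the platelet type, stood at 10.11, 9.80 and 9.84 in WT EGFP+ and at 10.70, 10.87 and 10.88 in delta EGFP+, 1.86-fold higher (difference 0.90, SE 0.12, adjusted p = 0.0035). Pfkl, the liver type, was higher by 0.78 (SE 0.13, adjusted p = 0.0069), at 8.77 ± 0.16 in WT EGFP+ and 9.55 ± 0.12 in delta EGFP+ (SD, n = 3 each). The Pfkl call was lost with the stress genes' mean level as a covariate (adjusted p = 0.052), and its dimmest probe set differed by -0.41, so that the mean over its probe sets differed by 0.34. Pfkm, the muscle type, differed by 0.33 (SE 0.11, adjusted p = 0.096), with an adjusted p of 0.039 after adding 32 to each value before the log and 0.045 over the mean of each gene's probe sets. Pfkfb2, Pfkfb3 and Pfkfb4 make or remove fructose 2,6-bisphosphate, the activator of phosphofructokinase, and none of them passed (differences 0.17, 0.09 and -0.36). Pfkfb4 read 6.67, 6.49 and 6.72 in WT EGFP+ and 6.22, 6.15 and 6.45 in delta EGFP+ (adjusted p = 0.12). Without WT EGFP+ replicate 2 and delta EGFP+ replicate 3 together it differed by -0.51 (limma adjusted p = 0.042).

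The enzymes from aldolase to phosphoglycerate kinase held the largest rise among the glycolytic enzymes. Tpi1, triosephosphate isomerase, which interconverts the 2 triose phosphates, stood at 9.51, 9.73 and 9.80 in WT EGFP+ and at 11.89, 12.17 and 12.05 in delta EGFP+. It was 5.13-fold higher (difference 2.36, SE 0.13, adjusted p = 8.6e-05), and its other probe sets differed by 2.37 and 2.51. Aldoa, the muscle-type aldolase, rose from 10.87, 11.22 and 11.10 to 12.12, 12.35 and 12.10, or 2.19-fold (difference 1.13, SE 0.13, adjusted p = 0.0017). All 5 Aldoa probe sets rose (0.82 to 1.49), but each is of the platform's kind whose probes also match related sequences, so near-identical copies could share their signal. Pgk1, phosphoglycerate kinase, rose from 11.58, 11.72 and 11.63 to 12.72, 12.75 and 12.68, or 2.11-fold (difference 1.07, SE 0.10, adjusted p = 0.00065). Aldoc, the brain aldolase, differed by 0.65 (adjusted p = 0.067) and by 0.79 without WT EGFP+ replicate 2 (adjusted p = 0.024). Bpgm, which makes 2,3-bisphosphoglycerate, differed by -0.09 (SE 0.11, adjusted p = 0.7).

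Gapdh, glyceraldehyde-3-phosphate dehydrogenase, was read from 3 control probe sets along its transcript, which were outside the test. At the middle of the transcript it stood at 12.69, 12.64 and 12.77 in WT EGFP+ and at 13.38, 13.48 and 13.37 in delta EGFP+, a difference of 0.71. The 3′ and 5′ probe sets differed by 0.70 and 0.58. In each of the 3, every delta EGFP+ array was higher than every WT EGFP+ array. The 3′ minus 5′ reading, a sign of RNA quality, was -0.36, -0.32 and -0.31 in WT EGFP+ and -0.20, -0.23 and -0.20 in delta EGFP+. This reading did not overlap between the groups, and its part in the results was not tested.

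In lower glycolysis the mutase and the kinase rose and an enolase isozyme fell. Pgam1, phosphoglycerate mutase, read 9.89, 10.22 and 10.36 in WT EGFP+ and 11.31, 11.41 and 11.33 in delta EGFP+, 2.29-fold higher (difference 1.19, SE 0.14, adjusted p = 0.0017). Pkm, pyruvate kinase, stood at 11.36 ± 0.07 and 12.23 ± 0.13 (SD, n = 3 each) and rose by 0.88 (SE 0.11, adjusted p = 0.0025); its probe set was not tied to either splice form. Eno3, the enolase isozyme known from muscle, went the other way: 10.06, 9.99 and 10.27 in WT EGFP+ and 8.88, 8.63 and 9.22 in delta EGFP+. That is 2.30-fold lower without overlap (difference -1.20, SE 0.17, adjusted p = 0.0037). Eno2, the neuronal isozyme, differed by -0.11 (SE 0.20, adjusted p = 0.82). Eno1, another enolase gene, was not analysed here, so the enolase step as a whole was not read.

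Of the 4 transcripts for lactate dehydrogenase subunits and lactate carriers 3 rose and 1 did not pass. Slc16a3, the lactate exporter MCT4, was low in WT EGFP+ (5.30, 5.37 and 5.65) and higher in every delta EGFP+ array (6.59, 6.83 and 6.85; difference 1.32, SE 0.14, adjusted p = 0.00094). No fold is given, since the WT mean lay below the median of all probe sets and values carry no detection call here. Slc16a1, the carrier MCT1, stood at 9.38 ± 0.16 and 10.16 ± 0.10 (SD, n = 3 each) and rose by 0.78 (SE 0.12, adjusted p = 0.0059). Its call was lost over the mean of both its probe sets (0.46, adjusted p = 0.069). Ldha, the lactate dehydrogenase subunit that favours lactate formation, stood at 11.81 ± 0.12 and 12.47 ± 0.09 (SD, n = 3 each). It rose by 0.66 (SE 0.11, adjusted p = 0.0087) and lost its call with the stress covariate (adjusted p = 0.07). Ldhb, the subunit that favours pyruvate, differed by -0.14 (SE 0.11, adjusted p = 0.51), and its other 3 probe sets differed by between -0.17 and -0.14.

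Pyruvate dehydrogenase links glycolysis to the citrate cycle, and the Pdk kinases switch it off. Pdk3 stood at 8.24, 8.70 and 8.31 in WT EGFP+ and at 9.63, 9.57 and 9.61 in delta EGFP+, 2.27-fold higher (difference 1.19, SE 0.14, adjusted p = 0.0017). Pdk2 read 6.32, 6.54 and 6.39 against 5.21, 5.74 and 6.01 (difference -0.76, SE 0.20, adjusted p = 0.046). This fall did not pass when any single EGFP+ array other than delta EGFP+ replicate 3 was left out. The adjusted p was 0.11, 0.075 and 0.12 without WT EGFP+ replicates 1, 2 and 3, and 0.082 and 0.11 without delta EGFP+ replicates 1 and 2 (0.017 to 0.12 over all alternatives). After adding 32 before the log it was -0.50 (adjusted p = 0.058). Pdk1, the isoform best known as a hypoxia target, differed by -0.29 (SE 0.12, adjusted p = 0.19), while a dimmer probe set of it differed by -0.96 (adjusted p = 0.0074). Over the mean of its probe sets Pdk1 differed by -0.38 (adjusted p = 0.032). Pdha1, the catalytic subunit of the complex, differed by -0.12 (SE 0.10, adjusted p = 0.55).

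**Figure D2:**
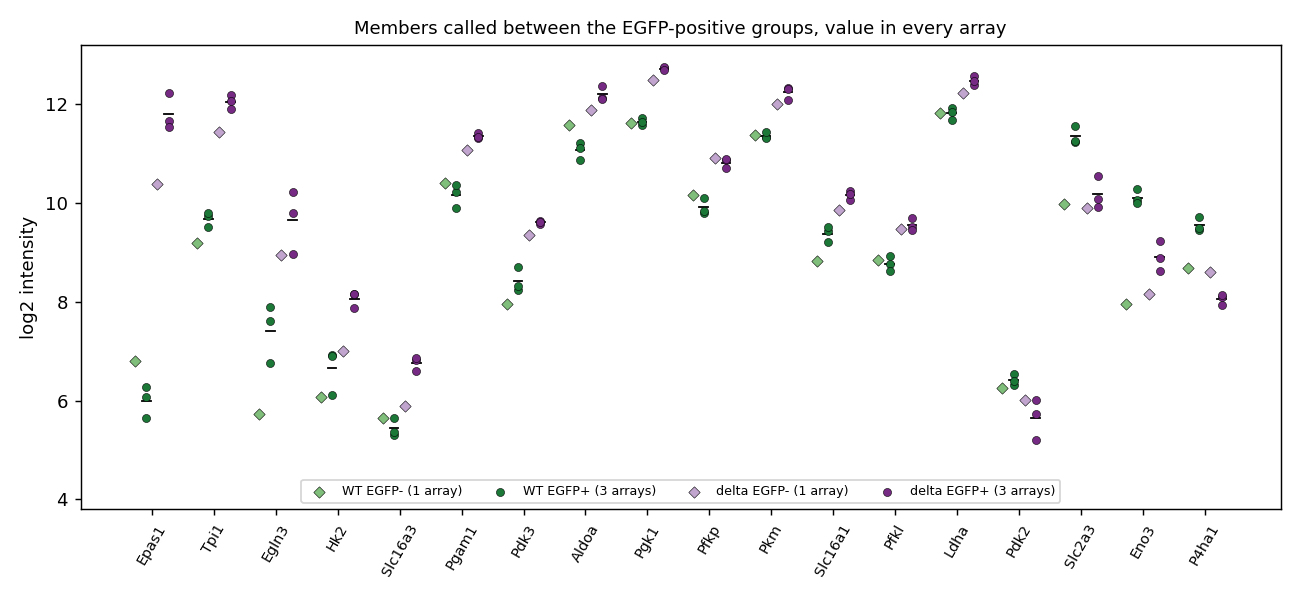
Log2 intensity (y axis) of the 18 members called between the EGFP+ groups in every array: dark circles are the 3 EGFP+ arrays of each allele with a bar at their mean, light diamonds the single EGFP- arrays, and members run from the largest rise to the largest fall. The EGFP+ arrays of the alleles do not overlap for any of the 18, and the delta EGFP- array lies above the WT EGFP- array for each of the 14 members that rose.

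Among the oxygen-sensing genes, Epas1 and Egln3 rose while Hif1a, Vhl and Egln1 did not pass. Epas1 read 6.07, 5.64 and 6.27 in WT EGFP+ and 11.67, 12.22 and 11.53 in delta EGFP+, 56.0-fold higher (difference 5.81, SE 0.22, adjusted p = 3.1e-05). Its other probe set, from a lower level, differed by 3.61 (adjusted p = 7.3e-05). Over the mean of both probe sets Epas1 differed by 4.71. The WT EGFP+ values lay near the median of all probe sets (5.75), so the size of the fold is uncertain. Epas1 is known to be abundant in endothelial cells. Of the 10 endothelial and stromal markers 0 rose and 1 fell (Pecam1, by -1.07), the other 9 differed by between -0.26 and 0.45, and the median difference of the 10 was 0.14. Their mean log2 level was 5.59, 5.72 and 5.73 in WT EGFP+ and 5.67, 5.78 and 5.69 in delta EGFP+, and their part in the Epas1 value was not tested. Hif1a stood at 12.36, 12.30 and 12.14 in WT EGFP+ and at 12.30, 12.41 and 12.08 in delta EGFP+, with a difference of 0.00 (SE 0.13) and no settled direction. Its other 3 probe sets differed by 0.48, 0.36 and 0.28, none of them called.

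Egln3, a prolyl hydroxylase that hypoxia is known to induce, had the widest spread of all members in both EGFP+ groups (SD 0.59 and 0.64). It read 7.60, 6.75 and 7.88 in WT EGFP+ and 9.79, 10.22 and 8.96 in delta EGFP+, 4.74-fold higher (difference 2.25, SE 0.37, adjusted p = 0.0075); its other probe set rose by 1.43 (adjusted p = 0.018). Egln1, the main prolyl hydroxylase, differed by 0.15 (SE 0.14) and Vhl by 0.02 (SE 0.12). Of the target genes, P4ha1, a catalytic subunit of collagen prolyl hydroxylase, fell 2.83-fold, from 9.46, 9.72 and 9.48 to 8.10, 8.13 and 7.93 (difference -1.50, SE 0.12, adjusted p = 0.00034); its other probe set differed by -1.35. Vegfa, the vascular growth factor, differed by 0.36 (SE 0.20, adjusted p = 0.33) and its other probe set by -0.54. Bnip3, a mitophagy receptor, differed by -0.22 (SE 0.19, adjusted p = 0.57).

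**Figure D3:**
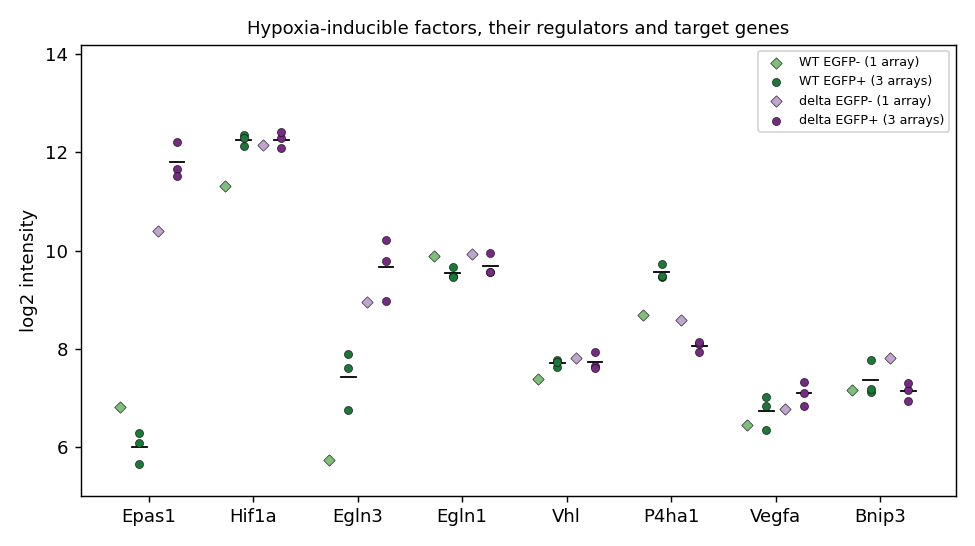
Log2 intensity (y axis) of the hypoxia-inducible factors, their regulators and 3 target genes in every array (circles EGFP+ with a bar at the mean of 3, diamonds the single EGFP- arrays). Epas1 lies between 5.64 and 6.27 in WT EGFP+ and between 11.53 and 12.22 in delta EGFP+, while Hif1a lies between 12.08 and 12.41 in all EGFP+ arrays.

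Genes around these members, from other lists, were counted in the same comparison. For each list here and below, the shares over all genes were 10.4% called higher and 6.02% called lower. In the fit to probe sets above the median they were 1952 and 1177 of 10992 genes. Of 27 other hypoxia target genes 7 rose and 5 fell, with a median difference of 0.08. Stc2, which encodes stanniocalcin 2, rose by 1.77 (SE 0.12, adjusted p = 0.00019), the collagen lysyl hydroxylase Plod2 by 1.59 (SE 0.18, adjusted p = 0.0013; 1.05 after adding 32 before the log) and Ankrd37 by 1.24 (SE 0.20, adjusted p = 0.0066). Ndrg1, a gene known to be induced by hypoxia, fell by 1.70 (SE 0.23, adjusted p = 0.003). Called targets thus lay in both directions, as called genes did among all genes. Of 11 further oxygen-sensing factors 0 rose and 1 fell, the ubiquitin ligase Siah1a (-1.05, adjusted p = 0.0096; 0.069 with the stress covariate). Arnt, the shared partner of the alpha subunits, differed by -0.46 (adjusted p = 0.11).

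In the citrate cycle and pyruvate dehydrogenase list 6 of 19 genes rose and 0 fell (median 0.26), led by fumarate hydratase Fh1 (1.18, SE 0.13) and the isocitrate dehydrogenase subunit Idh3a (0.88, SE 0.10). The rises of Pdk4 (0.72, adjusted p = 0.027; 0.37 after adding 32 before the log) and citrate synthase Cs (0.57, adjusted p = 0.024) were less firm. With the stress covariate neither passed (0.12 and 0.14). Pdk4 did not pass without WT EGFP+ replicate 1 (0.091), delta EGFP+ replicate 2 (0.098) or delta EGFP+ replicate 3 (0.081), nor Cs without WT EGFP+ replicate 3 (0.087), delta EGFP+ replicate 1 (0.093) or delta EGFP+ replicate 3 (0.072). In the pentose phosphate pathway 3 of 7 genes rose and 0 fell (median 0.34). They were Rpe (0.68, adjusted p = 0.011), Pgd (0.64, adjusted p = 0.012) and Tkt (0.44, adjusted p = 0.045). With the stress covariate none of these 3 passed (adjusted p = 0.093, 0.06 and 0.24). Over the mean of its probe sets Rpe differed by 0.31 (adjusted p = 0.13). Tkt did not pass when any single EGFP+ array other than WT EGFP+ replicate 2 was left out (0.095 to 0.14).

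Of 15 further glycolysis isozymes and glucose carriers 2 rose and 0 fell (median 0.20): the carriers Slc2a8 (0.79, adjusted p = 0.0061; 0.053 with the stress covariate) and Slc2a6 (0.77, adjusted p = 0.0036; 0.49 in size after adding 32 before the log). Among 16 upstream regulators 1 rose and 3 fell (median -0.13). Foxo1 and Foxo3, transcription factors of quiescence that growth factor signals switch off, fell by 1.81 (SE 0.13, adjusted p = 0.00025) and 1.36 (SE 0.12, adjusted p = 0.00056). The kinase Akt1, which acts on them, rose by 0.77 (adjusted p = 0.01; 0.067 with the stress covariate, and 0.39 in size over the mean of its probe sets). The lipid kinase subunit Pik3cd fell by 0.49 (adjusted p = 0.038) and did not pass when any single EGFP+ array other than delta EGFP+ replicate 2 was left out (0.061 to 0.12), nor with the stress covariate (0.22), nor over the mean of its probe sets (-0.25, adjusted p = 0.095). Myc, a known driver of glycolysis in T cells, differed by 0.33 (adjusted p = 0.32). In the other tested comparisons below, 0 genes of these lists passed.

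Cell cycle genes moved with the rise of the glycolytic members. Of 14 measured, 13 rose and 0 fell, and their summed intensity lay between 9554.4 and 15146.3 in WT EGFP+ and between 32394.9 and 36974.3 in delta EGFP+. It was 9418.2 in WT EGFP- and 23510.5 in delta EGFP-. The part of proliferation in the members' differences was not tested.

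The next comparison asks how the members differ between EGFP+ and EGFP- cells that carry the wild-type allele. Of the 35 members 1 rose (Eno3) and 1 fell (Pdk1), and 33 did not pass. At an unadjusted p under 0.05 were 14 of the 35, Eno3 and Pdk1 included, against 10.9% of all genes. Among all genes 1.5% were called, 1.02% higher and 0.478% lower. Eno3 stood at 7.95 in the WT EGFP- array, below all 3 WT EGFP+ arrays, and was higher in EGFP+ by 2.16 (SE 0.24, adjusted p = 0.0078). Pdk1, a kinase that inhibits pyruvate dehydrogenase and so the oxidation of pyruvate, stood at 9.37 in WT EGFP- and at 7.78, 7.75 and 7.66 in WT EGFP+ (difference -1.64, SE 0.17, adjusted p = 0.0066). Each test against a single EGFP- array assumes that the lone array varies like the replicated groups.

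Some members that did not pass gave positive differences here, where the median was 0.09 over the 35 members and -0.02 over all genes. Slc2a3 differed by 1.38 (adjusted p = 0.063), and its dimmer probe sets by 2.08 (adjusted p = 0.0095) and 1.72 (adjusted p = 0.028) among others. Hif1a stood at 11.32 in WT EGFP- and differed by 0.94 (adjusted p = 0.07), with 1.09 (adjusted p = 0.044) and 1.66 (adjusted p = 0.016) at 2 of its dimmer probe sets. P4ha1 differed by 0.87 (adjusted p = 0.082) and Egln3 by 1.69 (SE 0.53, adjusted p = 0.32). The glycolytic enzymes that rose between the alleles gave values of both signs here, none of them called: 0.58 for Hk2, 0.49 for Tpi1, 0.03 for Pgk1, -0.01 for Pkm and Ldha, -0.07 for Pfkl, -0.23 for Pfkp, -0.25 for Pgam1 and -0.51 for Aldoa. This comparison shares its WT EGFP+ arrays with the comparison of alleles above.

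For the mutant allele, EGFP+ was compared with EGFP- in the same way, and limma called 0 of 35 members, with 8 at an unadjusted p under 0.05, where 11.0% of all genes were (smallest adjusted p = 0.19). Of all genes 0.0879% were called, 0.022% higher and 0.066% lower. Pdk1 stood at 8.28 in delta EGFP- and at 7.37, 7.63 and 7.32 in delta EGFP+ (difference -0.84, SE 0.17, adjusted p = 0.19). Epas1 stood at 10.39 in delta EGFP- and differed by 1.41 (SE 0.32, adjusted p = 0.23). Hk2 differed by 1.06 (adjusted p = 0.34), Slc16a3 by 0.86 (adjusted p = 0.23), Tpi1 by 0.62 (adjusted p = 0.33) and P4ha1 by -0.54 (adjusted p = 0.38).

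Whether the EGFP difference itself differed between the alleles was tested as an interaction. Again 0 of 35 members passed, with 10 at an unadjusted p under 0.05, where 6.76% of all genes were, and 0.066% of all genes were called, 0.022% positive and 0.044% negative. The largest values were 2.22 for Epas1 (SE 0.45, adjusted p = 0.3), -1.41 for P4ha1 (SE 0.24, adjusted p = 0.21) and -1.41 for Eno3 (SE 0.34, adjusted p = 0.44). P4ha1 lay higher in all 3 EGFP+ arrays than in the EGFP- array for the wild-type allele (8.69 in EGFP-) and lower in all 3 for the mutant allele (8.59 in EGFP-).

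The EGFP- arrays, 1 per allele, were compared by value alone. Of the 35 members 6 were higher by at least 1 on the log2 scale in delta EGFP- and 1 was lower, where 3.78% and 1.04% of all genes were. The 6 were Epas1 (6.80 against 10.39), Egln3 (5.73 against 8.94), Tpi1 (9.19 against 11.42), Pdk3 (7.94 against 9.35), Aldoc (higher by 1.22) and Slc16a1 (8.81 against 9.84). Pdk1 was the lower one (9.37 against 8.28). All 14 members that rose between the EGFP+ groups were higher in delta EGFP- than in WT EGFP-, and so were 95.3% of the 1897 genes that rose there, so the members' share was near that of all such genes. These arrays are not among those of the EGFP+ comparison. The sources used here do not say whether their cells came from other animals than the EGFP+ cells. For the 14 the median difference was 0.82 between the EGFP- arrays and 1.16 between the EGFP+ groups.

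The members that fell between the EGFP+ groups gave smaller values between the EGFP- arrays: 0.21 for Eno3, -0.07 for Slc2a3, -0.10 for P4ha1 and -0.25 for Pdk2. None of these differences has a replicate check. Beside them, the mean level of 10 regulatory T cell markers was 6.90 in WT EGFP- and 8.52 in delta EGFP-. Summed Cd8a and Cd8b1 intensity was 281.7 and 559.3, while Cd8a differed by 2.24 and Cd8b1 by -0.08 (log2). Cell cycle genes differed as given above. The part of these in the members' values was not tested.

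**Figure D4:**
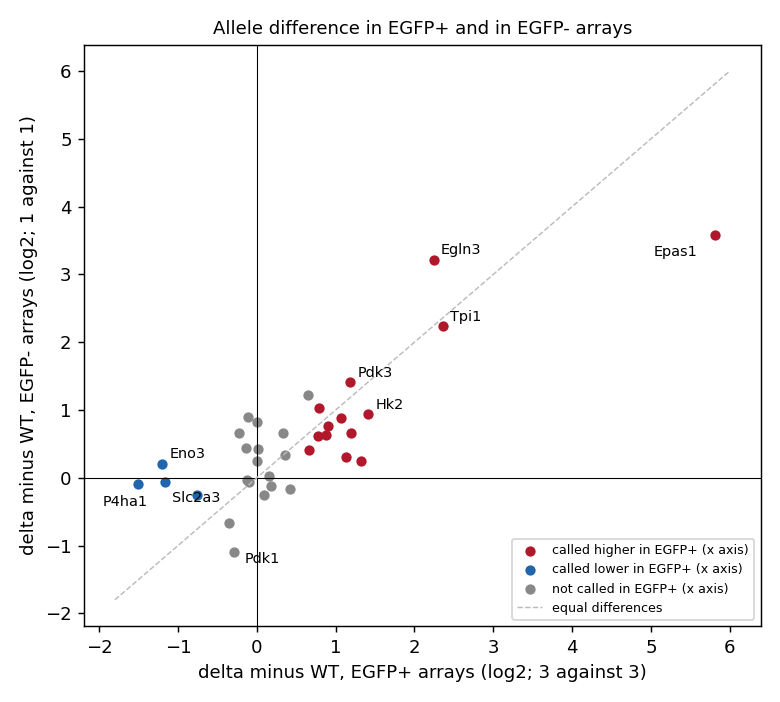
For each of the 35 tested members, the delta minus WT difference between the EGFP+ groups (x axis, log2, 3 against 3 arrays) and between the single EGFP- arrays (y axis, log2); red members were called higher and blue lower between the EGFP+ groups, and the dashed line marks equal differences. Tpi1 stands near the line (2.36 and 2.23), Epas1 below it (5.81 and 3.59), Egln3 above it (2.25 and 3.22), and P4ha1, Slc2a3 and Eno3 near 0 on the y axis.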

How the data were processed

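Sorted mouse CD4+ T cells were measured on 8 arrays, 1 per sample. The authors deposited linear intensity per probe set after RMA (background correction, quantile normalization and probe summary), per the labels and the submitters' processing notes, which name no version. RMA compresses differences at low intensity. Of 45101 probe sets, 45037 entered the tests unfiltered and 64 controls did not. The annotation names 1 symbol for 34945 of them (34741 with a current RefSeq record), several for 932 and no symbol for 9160. Log2 was taken without a pseudocount. Limma 3.58.1 (R 4.3.3) fitted a mean per group to all 8 arrays (4 residual and 3.72 prior degrees of freedom). P-values are two-sided and Benjamini-Hochberg adjusted over every probe set tested, with a threshold of 0.05. The fit was tested on simulated arrays.

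The members and lists were chosen with earlier results of these data known. Values in every array are given for members called with a difference of at least 1, the first 5 in each direction, those called in another comparison, and otherwise the member of a role group with the smallest p. In other lists up to 4 called genes are named by size. Myc, Arnt, the marker genes and the Hif1a and Gapdh array values were added after the values were seen. Alternatives left out arrays, changed the filter, pseudocount, scaling, prior, weights or probe set rule, or added a block or covariate. Folds are given where both means exceeded the median probe set. Promoters come from RefSeq (GRCm38.p6).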

Additional observations from a re-analysis of the deposited data

How the results depend on the processing

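Between the EGFP+ groups the count of called members stayed between 16 and 20 over 17 alternatives, and Tpi1, Epas1, Egln3, Hk2, Slc16a3, Pgam1, Pgk1, Aldoa, Pkm, Pfkp, Pdk3, P4ha1, Eno3 and Slc2a3 were called under every one of them. Between WT EGFP+ and WT EGFP- the count of 2 became 1 with the number series of the sample titles as a replicate block (Eno3; Pdk1 had an adjusted p of 0.063), 4 with an intensity trend and robust prior, 5 over the mean of each gene's probe sets and 7 without WT EGFP+ replicate 2 and delta EGFP+ replicate 3 together. Under that last setting 1 member, Epas1, was called between delta EGFP+ and delta EGFP-, which was 0 under the others, as was the interaction. The replicate block left 18 calls between the EGFP+ groups. Same-series arrays deviated together at 0.121, 0.046 and -0.102, so the series was not taken as a pairing.

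Members near 0 between the EGFP+ groups changed sign, and the cause was not tested. With single arrays left out Slc2a1 ranged from -0.207 to 0.144, Eno2 from -0.270 to 0.104, Hif1a from -0.073 to 0.092 and Vhl from -0.079 to 0.076. Slc2a1 was at 0.44 and Eno2 at 0.27 with the stress covariate, where Pfkfb3 was at -0.076. Without the pair of arrays Eno2 was at 0.017 and Bnip3 at 0.08. Over the mean of the probe sets Slc2a1 was at 0.013, Pfkfb2 at -0.10 and Vegfa at -0.09. Slc2a1 was at 0.021 after median centring and Hif1a at -0.023 after a further quantile normalization.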

Other observations

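Bhlhe40 and Ddit4 are hypoxia target genes outside the named ones, singled out after their values were seen. Both varied more within WT EGFP+ (SD 2.22 and 1.37) than they differed between the EGFP+ groups. From WT EGFP- to WT EGFP+ they differed by more than that SD (3.59 and -1.83). Bhlhe40, a transcription factor induced by hypoxia and by T cell activation, stood at 11.73, 7.99 and 11.94 in WT EGFP+, at 11.91, 11.89 and 11.19 in delta EGFP+, at 6.96 in WT EGFP- and at 10.60 in delta EGFP-. Ddit4, a stress-induced brake on mTOR signalling, ran the other way within WT EGFP+ (8.64, 11.35 and 9.60). In both genes WT EGFP+ replicate 2 stood apart from the other arrays of its group and nearer to the WT EGFP- array, which read 11.69 for Ddit4. Neither passed between the EGFP+ groups (Bhlhe40 1.11, SE 0.94; Ddit4 0.54, SE 0.62).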
